A study of Mus musculus with 3 samples.

Results

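The genes described here are 10 structural components of epithelial cells, read as UMI counts in single cells of mouse embryonic kidney: the adhesion molecule Epcam, the cadherins Cdh1 and Cdh16, the claudins Cldn3, Cldn4, Cldn6 and Cldn7, and the keratins Krt8, Krt18 and Krt19. They were taken by symbol from 28851 nuclear-encoded genes listed in the tables of 3 plates, and all 10, called members in the plots, are listed and counted on every plate. The cultured E12.5 plate holds cells of kidneys taken at E12.5, counted in embryonic days, and kept as explants for 5 days. The cultured E11.5 plate holds cells of kidneys taken at E11.5 and then kept as explants, for 7 days by its title and for 5 days by its stage label. The uncultured E11.5 plate holds cells of kidneys taken at E11.5 without culture. All mice were C57BL/6. Both cultured plates came from LGR6-EGFP-IRES-CreERT2/ROSA26-tdTomato embryos, and the uncultured plate from LGR6-EGFP-IRES-CreERT2 embryos, so that every group carries the Lgr6 reporter. The series is about LGR6 in nephron progenitor cells. How the sorting gate was set, how the cells of multi-cell wells were chosen and how many embryos were pooled are not given in the sources used here. There was 1 plate per group, so no test across replicates was possible. Culture and the tdTomato allele differ together between the cultured plates and the uncultured plate, as does the sequencing run named in the library labels, and their parts cannot be told apart. The cultured E12.5 plate also differs from the uncultured plate in the age at which kidneys were taken, and that part cannot be told apart either.

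Epithelial cells hold to each other through adherens junctions built by classical cadherins, seal the space between cells with tight junction strands made of claudins, and carry an internal scaffold of keratin filaments, each an assembly of a type II keratin such as Krt8 with a type I keratin such as Krt18 or Krt19. In the embryonic kidney such epithelium has more than 1 origin. The ureteric bud is epithelial from the start and branches to form the collecting ducts, while nephron progenitors are mesenchymal cells that turn epithelial as they form nephrons. Transcription factors of the Snail and Zeb families repress epithelial junction genes in mesenchymal cells, by binding the hexamer CACCTG, which reads CAGGTG on the other strand.

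Because that hexamer is the known binding sequence of those repressors, the promoter windows are shown first for the adhesion gene, the claudin and the keratin pair on which the results below turn. They cover 250 bases before the start of transcription in the RefSeq annotation of GRCm38.p6, 5′ to 3′ on the strand of the gene, with the hexamer on either strand in capitals. The Epcam window is chr17:87635729-87635978 on the plus strand and the Cldn6 window is chr17:23679115-23679364 on the plus strand. The Krt8 window is chr15:102004343-102004592 on the minus strand, and the Krt18 window, beside it on the same chromosome, is chr15:102027966-102028215 on the plus strand.
Epcam: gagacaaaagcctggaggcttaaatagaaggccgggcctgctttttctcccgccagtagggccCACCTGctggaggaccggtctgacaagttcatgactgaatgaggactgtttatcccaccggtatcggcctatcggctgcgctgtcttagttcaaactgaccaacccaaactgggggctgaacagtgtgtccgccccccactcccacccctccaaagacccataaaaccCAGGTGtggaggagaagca
Cldn6: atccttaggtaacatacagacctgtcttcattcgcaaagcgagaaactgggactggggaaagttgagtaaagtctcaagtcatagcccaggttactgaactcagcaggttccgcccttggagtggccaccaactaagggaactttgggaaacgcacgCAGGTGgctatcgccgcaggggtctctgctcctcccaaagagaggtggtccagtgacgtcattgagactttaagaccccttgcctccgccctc
Krt8: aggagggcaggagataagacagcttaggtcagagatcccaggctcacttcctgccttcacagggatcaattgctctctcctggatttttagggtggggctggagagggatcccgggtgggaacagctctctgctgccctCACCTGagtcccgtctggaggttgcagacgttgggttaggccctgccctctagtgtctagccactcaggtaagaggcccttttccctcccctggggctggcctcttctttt
Krt18: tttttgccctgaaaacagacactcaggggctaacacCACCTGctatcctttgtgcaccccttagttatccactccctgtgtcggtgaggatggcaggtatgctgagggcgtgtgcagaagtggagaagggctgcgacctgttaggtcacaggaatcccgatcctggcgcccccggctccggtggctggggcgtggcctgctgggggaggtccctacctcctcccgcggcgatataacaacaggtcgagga
The table held windows for 7 of the 10 genes, and the genes with no window in it were Cdh1, Cdh16 and Krt19. At least 1 hexamer was found in 6 of those 7 genes and in 6 of their 8 windows. Over the whole table it was found in 17.2% of 32851 windows and in 19.4% of 27025 genes. In Epcam the hexamers begin 187 and 19 bases before the start, in Krt18 the hexamer begins 214 bases before it, in Krt8 111, in Cldn6 93 and in Cldn4 14. Cldn7 has 2 windows, of which only 1 holds the hexamer, and Cldn3 has none in its window. A match of letters is not a binding site, and no binding was measured.

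Wells were kept when they held at least 1000 counts of nuclear-encoded genes and no more than 30% mitochondrial counts. This left 200 of 327 single-cell wells on the cultured E12.5 plate, 300 of 327 on the cultured E11.5 plate and 337 of 369 on the uncultured E11.5 plate, with median depths of 9212, 8993 and 6732 counts. On the cultured E12.5 and cultured E11.5 plates a further 38 and 36 kept wells were multi-cell wells, which by the labels received more than 1 cell. Some wells stand apart by depth: 7, 9 and 32 wells held over 3 times the median of their plate, up to 364619.5 counts in well D1 of the uncultured plate. The 3 tables share all 384 well names, which are plate positions and not cell barcodes, and no doublet caller was run. Levels are given as CPM, the counts summed over wells and scaled to 1000000 nuclear-encoded counts. Intervals are exact 95% intervals that cover counting error only, not the spread between embryos or plates.

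The background of these genes was read in control wells and in cells that should lack them. The 15 control wells of the uncultured plate, at a median depth of 632 counts, held 2 counts of Cldn6 in 2 wells and no count of the other 9 genes. Relative to their few counts this is 145 CPM (17.6 to 525). The control wells of both cultured plates held none of the 10 genes, which allows up to 1020.4 CPM in cultured E12.5 and 1096 CPM in cultured E11.5, taking 3 counts as the limit of a 0. These levels do not lie below those of the kept wells given next, so the control wells do not bound the background under them. In wells with at least 20 counts of leukocyte genes, a cell type that should lack these genes, any of the 10 was found in 1 of 4 wells of cultured E12.5, 4 of 15 of cultured E11.5 and 2 of 16 of uncultured E11.5, at median depths of 14214, 11549 and 6451 counts. In no such well did the 10 genes together reach more than 1 count. Over all kept wells any of the 10 genes was found in 48 of 200, 63 of 300 and 73 of 337 wells. These shares lie within the intervals of the leukocyte-rich wells, which are wide: 0.631% to 80.6%, 7.79% to 55.1% and 1.55% to 38.3%. So few wells cannot decide whether a single count is background. As a precaution a single count in a well is read below as background, and the results rest on wells with several of the genes and on summed levels. Wells with several of the genes can still hold some of them at 1 count. The definition of leukocyte-rich wells was chosen after seeing the data.

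The 3 adhesion genes had different orders across the plates. Epcam, the surface glycoprotein most widely used to mark epithelium, was at 22.6 CPM in cultured E12.5 (16.9 to 29.5), 10.3 CPM in cultured E11.5 (7.07 to 14.4) and 22.6 CPM in uncultured E11.5 (18.3 to 27.7). It was counted in 17 of 200, 10 of 300 and 38 of 337 wells. The cultured E12.5 and uncultured plates did not differ beyond counting error for Epcam, and the cultured E11.5 plate lay below both. In these sums, fewer cells of a type and less RNA per cell cannot be told apart. Cdh1, the E-cadherin of adherens junctions, was at 16.2 CPM in cultured E12.5 (11.4 to 22.2), 5.92 CPM in cultured E11.5 (3.56 to 9.24) and 9.38 CPM in uncultured E11.5 (6.67 to 12.8). Cdh16, a cadherin known from the tubules of the kidney, was at 34.5 CPM in cultured E12.5 (27.4 to 42.9), 12.8 CPM in cultured E11.5 (9.16 to 17.3) and 3.85 CPM in uncultured E11.5 (2.20 to 6.25). Cdh16 thus had its highest sum on the cultured E12.5 plate and its lowest on the uncultured plate, and the intervals of the 3 plates do not overlap.

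The claudins split in the same data. Cldn6, a claudin of embryonic epithelia, was at 21.3 CPM in cultured E12.5 (15.8 to 28.1), 23.1 CPM in cultured E11.5 (18.1 to 28.9) and 32.0 CPM in uncultured E11.5 (26.8 to 37.9). It was counted in more wells than any other of the 10 genes on each plate, 18, 33 and 44 wells. In 12, 25 and 25 of those wells it stood at a single count. At 2 or more counts Cldn6 was in 6, 8 and 19 wells and Epcam in 10, 4 and 16, so the order did not hold in cultured E12.5. Cldn7, a claudin of collecting duct and distal tubule, was at 25.5 CPM in cultured E12.5 (19.5 to 32.9), 8.72 CPM in cultured E11.5 (5.79 to 12.6) and 7.45 CPM in uncultured E11.5 (5.06 to 10.6). Cldn3 and Cldn4, claudins of tight epithelia, had few counts. Cldn4 was at 14.5 CPM in cultured E12.5 (34 counts), 5.92 CPM in cultured E11.5 (19 counts) and 1.44 CPM in uncultured E11.5 (6 counts). Cldn3 was at 9.79 CPM in cultured E12.5 (23 counts), 2.49 CPM in cultured E11.5 (8 counts) and 3.13 CPM in uncultured E11.5 (13 counts). Well B16 alone held 60.9% of the Cldn3 counts and 41.2% of the Cldn4 counts of the cultured E12.5 plate. Cldn6 made up 29.9% of the counts of the 4 claudins in cultured E12.5 (23.1% to 37.5%), 57.4% in cultured E11.5 (48.4% to 66.0%) and 72.7% in uncultured E11.5 (65.6% to 79.0%).

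All 3 keratins were higher on both cultured plates than on the uncultured plate. Krt8 was at 23.0 CPM in cultured E12.5 (17.3 to 29.99), 15.3 CPM in cultured E11.5 (11.3 to 20.2) and 4.09 CPM in uncultured E11.5 (2.38 to 6.54). Krt18, its usual partner in simple epithelia, was at 24.3 CPM in cultured E12.5 (18.4 to 31.4), 19.7 CPM in cultured E11.5 (15.1 to 25.1) and 6.25 CPM in uncultured E11.5 (4.08 to 9.16). Krt19, a type I keratin of ducts and mesothelium, was at 13.6 CPM in cultured E12.5 (9.32 to 19.2), 11.8 CPM in cultured E11.5 (8.38 to 16.2) and 1.20 CPM in uncultured E11.5 (0.390 to 2.81). These sums came from few cells. Krt8 was counted in 7, 6 and 11 wells, Krt18 in 8, 9 and 14, and Krt19 in 7, 10 and 3, so the plates with more keratin counts did not have more wells with Krt8 or Krt18. The 3 highest wells held 90.8% of the Krt8 counts of cultured E12.5, 93.9% of those of cultured E11.5 and 47.1% of those of uncultured E11.5. Krt8-ps, a pseudogene copy of Krt8, is listed in the uncultured table only, with 0 counts in kept wells, so reads of Krt8 were not seen to be split there.

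**Figure D1:**
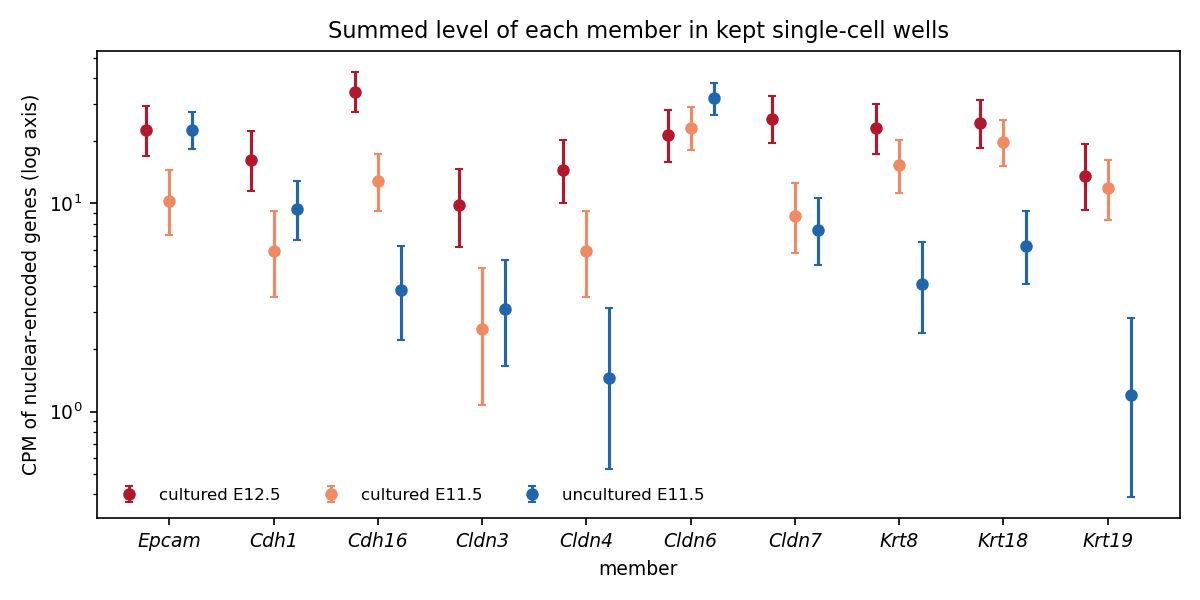
Level of each of the 10 genes in kept single-cell wells, as CPM of nuclear-encoded genes on a logarithmic axis, for cultured E12.5, cultured E11.5 and uncultured E11.5, left to right; points are sums over the wells of 1 plate and bars are exact 95% Poisson intervals. Krt19 lies at 13.6 and 11.8 CPM on the cultured plates and at 1.20 CPM on the uncultured plate, while Epcam lies at 22.6, 10.3 and 22.6 CPM.

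Set against the uncultured plate, the cultured plates were higher in Cdh16, Cldn4 and the 3 keratins. Both of these comparisons use the same uncultured plate, so their values are given side by side and were not correlated. In the comparison of cultured E12.5 the age at which kidneys were taken differs as well. Krt19 was 11.3-fold higher in cultured E12.5 (4.38 to 37.3) and 9.85-fold higher in cultured E11.5 (3.87 to 32.0). Krt8 was 5.64-fold higher in cultured E12.5 (3.21 to 10.3) and 3.74-fold higher in cultured E11.5 (2.11 to 6.92). Krt18 was 3.89-fold higher in cultured E12.5 (2.40 to 6.43) and 3.15-fold higher in cultured E11.5 (1.96 to 5.17). With each well weighted equally, the cultured E11.5 ratios were 1.70 for Krt8, 1.55 for Krt18 and 3.21 for Krt19, so Krt8 and Krt18 were then under 2-fold on that plate. In cultured E12.5 they were 3.35 for Krt8, 2.54 for Krt18 and 5.36 for Krt19. Without wells over 3 times the median depth, Krt8 was at 3.61 in cultured E12.5 and 2.28 in cultured E11.5, Krt18 at 2.94 and 2.27, and Krt19 at 7.25 and 5.68. Without the well with most Krt8 on each plate, Krt8 was at 3.70 and 2.29, and without that of Krt19, Krt19 was at 18.2 in cultured E11.5. The 18.2 stands on very few uncultured counts, because the well left out there, M23, held 3 of the 5 Krt19 counts. It is not read as a larger difference.

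Among the junction genes, Cdh16 was 8.98-fold higher in cultured E12.5 (5.20 to 16.4) and 3.32-fold higher in cultured E11.5 (1.82 to 6.34) than in uncultured E11.5. Cldn4 was 10.0-fold higher in cultured E12.5 (4.16 to 29.2) and 4.10-fold higher in cultured E11.5 (1.58 to 12.6), against only 6 counts on the uncultured plate. Cldn7 was 3.43-fold higher in cultured E12.5 (2.19 to 5.47) and at a ratio of 1.17 in cultured E11.5 (0.676 to 2.02). Cldn3 was 3.13-fold higher in cultured E12.5 (1.52 to 6.73), but 1.59-fold without the Cldn3 well with most counts on each plate, and at a ratio of 0.797 in cultured E11.5 (0.286 to 2.08). Cldn6 ran the other way, at a ratio of 0.666 in cultured E12.5 (0.471 to 0.928) and of 0.722 in cultured E11.5 (0.535 to 0.965). Epcam was at a ratio of 0.998 in cultured E12.5 (0.699 to 1.41) and of 0.455 in cultured E11.5 (0.296 to 0.683). Without wells over 3 times the median depth, Cldn4 was at 6.05 in cultured E12.5 and 2.50 in cultured E11.5, Cldn7 at 2.27 and, in the other direction, 0.736, Cldn3 at 0.526 in cultured E11.5 and Cdh1 at 1.08 in cultured E12.5 and 0.384 in cultured E11.5, against 1.73 and 0.631 with all wells. With equal weight per well, Cdh16 was at 2.15 and Cldn3 at 0.383 in cultured E11.5. Thinned to 1000 counts, Cdh16 was at 4.63, Cldn7 at 21.9 and Epcam at 1.498 in cultured E12.5, and in cultured E11.5 Epcam was at 0.25 and Cldn6, in the other direction, at 1.35. These thinned ratios come from a single random draw and few wells, and are not read as effect sizes. Thinned, Cldn7 was in 7 wells of cultured E12.5 and 1 of uncultured E11.5. Epcam was in 5 wells of cultured E12.5, 2 of cultured E11.5 and 6 of uncultured E11.5. In all, 7 of the 10 genes were at least 2-fold higher and 0 at least 2-fold lower in cultured E12.5 than in uncultured E11.5, where 18.9% and 13% of 15174 genes with at least 10 counts were. In cultured E11.5, 5 were at least 2-fold higher and 1 lower, where 20.8% and 11.3% of 15770 genes were. With wells thinned to 1000 counts, 2 were higher in cultured E12.5 and 0 in cultured E11.5, where few of the 10 genes still had 10 counts in the pair. The median log2 ratio of the 10 genes was 1.87 in cultured E12.5 and 0.94 in cultured E11.5, beside -0.01 and 0.07 over all genes compared.

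Between the 2 cultured plates Epcam, both cadherins and 3 of the 4 claudins were at least 2-fold higher in cultured E12.5. Epcam was 2.20-fold higher in cultured E12.5 than in cultured E11.5 (1.40 to 3.50), Cdh1 2.73-fold (1.54 to 5.02) and Cdh16 2.70-fold (1.83 to 4.03). Cldn3 was 3.93-fold higher (1.70 to 10.2), Cldn4 2.45-fold (1.36 to 4.54) and Cldn7 2.93-fold (1.84 to 4.76). Krt8 was at a ratio of 1.51 (1.00 to 2.26), Krt18 of 1.23 (0.849 to 1.80), Krt19 of 1.15 (0.696 to 1.89) and Cldn6 of 0.922 (0.632 to 1.34). Thus 6 of the 10 genes were at least 2-fold higher, where 4.52% of 15342 genes were, and 0 at least 2-fold lower, where 8.32% were. The Krt19 ratio was 0.637 without its highest well on each plate, where Cdh1 was at 4.64 and Cldn3 at 2.46. With equal weight per well, Cdh16 was at 4.34, Cldn3 at 7.63 and Cldn4 at 3.88. These plates differ in the age at which kidneys were taken, and by title in days of culture.

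The partners of the 10 genes in the same structures were counted against the shares over all genes, which were 18.9% higher and 13% lower in cultured E12.5 and 20.8% higher and 11.3% lower in cultured E11.5. Of 14 tight junction and polarity genes with at least 10 counts, 2 were at least 2-fold higher and 3 at least 2-fold lower in cultured E12.5 than in uncultured E11.5, and in cultured E11.5 1 was higher and 4 lower. Their median log2 ratios were -0.43 and -0.54. Pard3, a polarity scaffold, was at ratios of 0.790 (0.687 to 0.905) and 0.815 (0.721 to 0.921), and Tjp1, the ZO-1 scaffold that links claudins to actin, at 0.930 (0.767 to 1.12) and 1.04 (0.885 to 1.23). F11r, a junctional adhesion molecule, was at 0.767 (0.635 to 0.921) and 0.376 (0.302 to 0.465), and Ezr, a linker of apical membrane to actin, at 0.517 (0.413 to 0.644) and 0.549 (0.452 to 0.664). These scaffolds are also expressed outside epithelia. Of the desmosome and hemidesmosome genes, 3 of 7 were at least 2-fold higher and 0 lower in cultured E12.5, and 2 of 6 higher and 1 lower in cultured E11.5, so several of these counts lie near the shares over all genes. Jup, the plakoglobin of desmosomes and adherens junctions, was at a ratio of 2.18 (1.74 to 2.74) in cultured E12.5 and 1.41 (1.12 to 1.79) in cultured E11.5.

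Of the epithelial regulators, 6 of 10 were at least 2-fold higher and 1 lower in cultured E12.5, and 2 of 8 higher and 2 lower in cultured E11.5, the last near the same shares over all genes. Elf3, an epithelial transcription factor, was 4.30-fold higher in cultured E12.5 (1.69 to 12.3) and 3.33-fold higher in cultured E11.5 (1.33 to 9.44). Ovol1, another epithelial transcription factor, was at 0.328 (0.0986 to 0.864) and 0.144 (0.0279 to 0.468), with 5 and 3 counts against 27. The mesenchymal genes were also higher in part, 5 of 10 in cultured E12.5 and 4 of 10 in cultured E11.5, with 1 lower on each. Fn1, the fibronectin of the matrix, was 2.70-fold higher in cultured E12.5 (2.55 to 2.86) and 2.93-fold higher in cultured E11.5 (2.78 to 3.10), and Zeb2, a repressor of epithelial genes, 2.19-fold (1.95 to 2.45) and 2.12-fold (1.91 to 2.36). Thus the keratins and part of the mesenchymal genes had higher sums on both cultured plates.

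**Figure D2:**
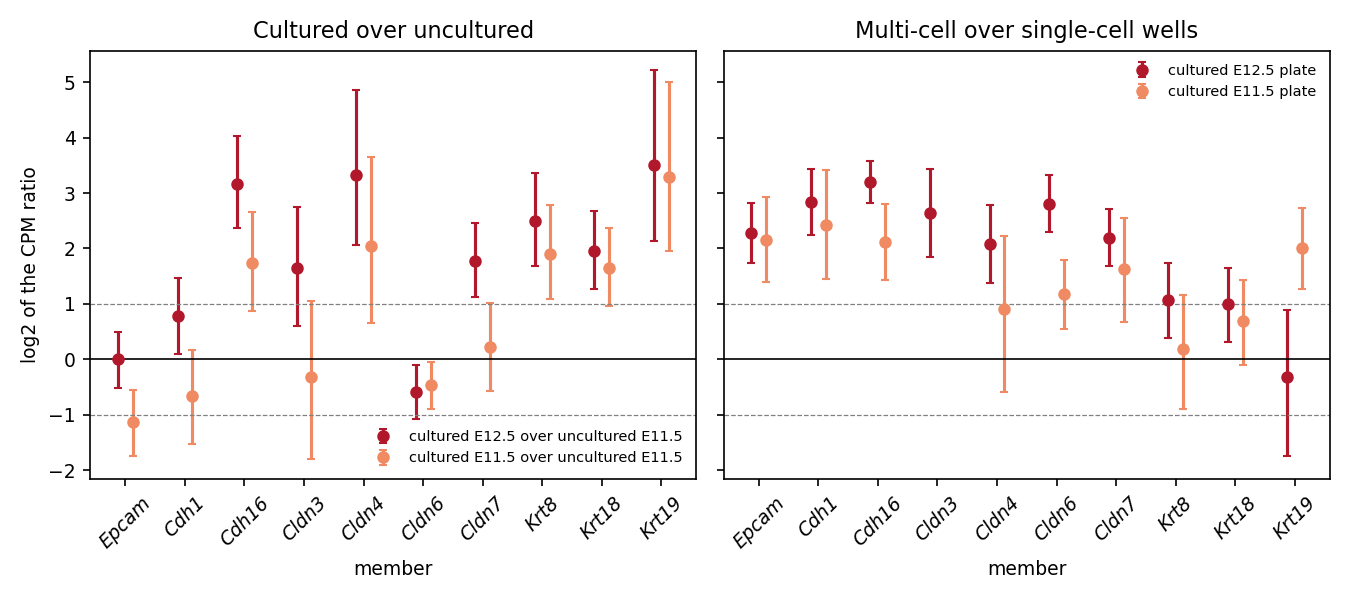
Log2 of the CPM ratio for each of the 10 genes, on the left for cultured E12.5 and cultured E11.5 over uncultured E11.5, on the right for multi-cell over single-cell wells of each cultured plate; bars are exact binomial 95% intervals of the split of counts, and dashed lines mark 2-fold. On the left the 3 keratins lie above the upper dashed line and Cldn6 lies below 0 on both plates; on the right Cldn3 of cultured E11.5 is left out for too few counts.

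The cells around these wells also differed between plates. The summed level of the 8 stromal genes was 14953 CPM in cultured E12.5, 20099 CPM in cultured E11.5 and 2049 CPM in uncultured E11.5, with medians per well of 11902, 16411 and 1605 CPM. The 10 nephron progenitor genes summed to 436, 275 and 1262 CPM. The 15 ureteric genes summed to 268, 255 and 389 CPM and the 13 early nephron genes to 346, 243 and 519 CPM. All 8 stromal genes had counts on every plate; 1 progenitor gene was at 0 on the cultured E11.5 and uncultured plates. The part that these differences have in the levels above was not tested.

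Wells with 3 or more of the 10 genes held most of their counts. There were 10 such wells of 200 in cultured E12.5 (5%, 2.42% to 9%), 6 of 300 in cultured E11.5 (2%, 0.737% to 4.30%) and 16 of 337 in uncultured E11.5 (4.75%, 2.74% to 7.60%). They held 90.7%, 79.3% and 69.7% of all counts of the 10 genes. With each well thinned to 1000 counts, 6, 3 and 4 wells reached 3 genes; with wells thinned to 3000 counts, which left out 9, 12 and 41 shallower wells, 9 of 191, 4 of 288 and 11 of 296 did. The intervals of cultured E12.5 and uncultured E11.5 overlap in each of these settings. None of the 15 control wells of any plate reached 3 genes. At median depths of 129 counts in cultured E12.5, 150 in cultured E11.5 and 632 in uncultured E11.5, they were too shallow for this to bound the background.

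Counts per well ran further up on the cultured plates. In cultured E12.5, well B12 held 129.2 counts in 9 of the 10 genes, B16 held 121.1 counts in all 10 and K17 held 72 counts in all 10. After those came O22 with 33 counts, N22 with 25 and C16 with 20, of which 16 were Cdh16. In cultured E11.5, F6 held 109.2 counts, I10 held 101.2 and E14 held 64, each in all 10 genes, and the other 3 wells held 9, 8 and 4. In uncultured E11.5, B13 held 57 counts in all 10 genes, J7 held 43 and O7 held 42 in 9 genes each, and the other 13 wells held between 4 and 19. The 3 highest wells held 66.8% of the counts of the 10 genes in cultured E12.5, 73.7% in cultured E11.5 and 37.4% in uncultured E11.5, so the sums of each cultured plate rest mainly on 3 cells. Relative to depth, B16 and K17 reached 13937 and 11404 CPM, I10 reached 7564 CPM and the highest uncultured well, D22, reached 3575 CPM.

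**Figure D3:**
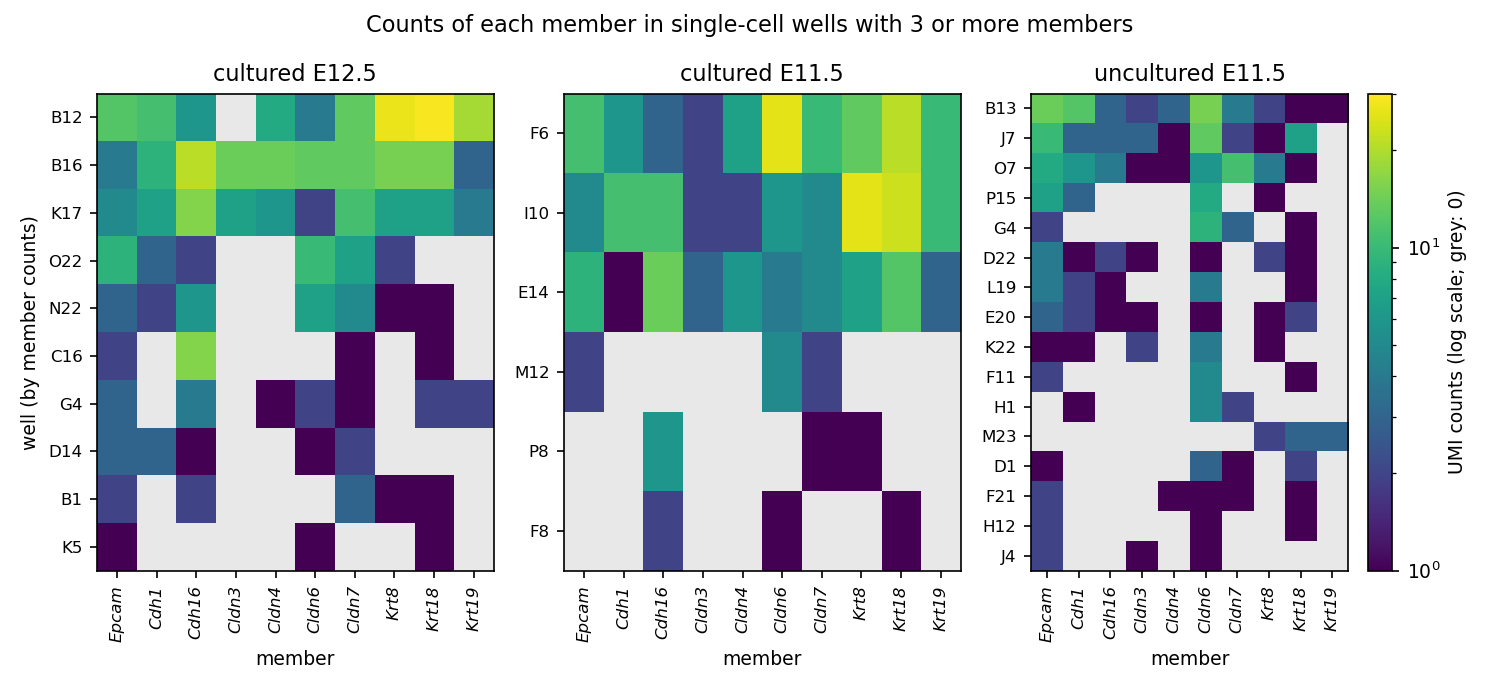
UMI counts of each of the 10 genes (columns) in every kept single-cell well with 3 or more of them (lines, ordered by their counts), for cultured E12.5, cultured E11.5 and uncultured E11.5 from left to right, with colour on a logarithmic scale and grey for 0. A few wells per plate, such as B12, B16 and K17 of cultured E12.5, carry nearly every gene, and Krt19 is at 0 in 14 of the 16 uncultured wells.

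Some wells with 3 of the genes were deep wells. Wells D1, F11 and H12 of the uncultured plate are over 3 times the median depth and held 7, 8 and 4 counts of the 10 genes, or 19.2, 54.4 and 198 CPM. D1 held 109.4 counts of Six2, a nephron progenitor factor, and 251.6 of Col1a1, a stromal collagen, besides its 7 counts. F11 held 66.5 counts of Six2 and 112.5 of Col1a1. Without wells over 3 times the median depth, the sum of the 10 genes was 238 CPM in cultured E12.5, 128 CPM in cultured E11.5 and 136 CPM in uncultured E11.5, against 205, 116 and 91.4 CPM with them. Without the well with most counts of each gene, the sums were 132, 72.3 and 73.4 CPM.

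The 10 genes occurred together unevenly. Krt8 and Krt18 were counted in the same well in 5 wells of cultured E12.5, 3 of cultured E11.5 and 6 of uncultured E11.5. Those are 71.4%, 50.0% and 54.5% of the Krt8 wells, and 62.5%, 33.3% and 42.9% of the Krt18 wells. Across wells their log-scale values had a Pearson correlation of 0.90, 0.87 and 0.57 over 200, 300 and 337 wells, a description that shares depth and library. Epcam was found in all 8 Krt18 wells of cultured E12.5, in 3 of 9 of cultured E11.5 and in 11 of 14 of uncultured E11.5. Epcam and Cldn7 met in 9, 4 and 9 wells. Cldn6 was counted with none of the other genes in 7 of its 18 wells in cultured E12.5, 23 of 33 in cultured E11.5 and 16 of 44 in uncultured E11.5. It stood there nearly always as 1 count, the level also seen in control wells of the uncultured plate only. The 16 uncultured wells had a median of 1052.2 CPM of early nephron genes, against 148.7 CPM in wells with none of the 10 genes. For nephron progenitor genes the medians were 1450.5 and 434.5 CPM, and median depths were 10950 and 6286 counts. The 15 uncultured wells with Epcam and none of the other genes had medians of 1578.4 CPM of progenitor genes and 313.4 CPM of early nephron genes. Their median depth was 10137 counts. The higher progenitor median was thus not particular to wells with Cldn6 alone. Whether Cldn6 is background in the wells where it stood alone was not tested.

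Keratins made up a larger part of the counts of the 10 genes on the cultured plates. Their share was 29.7% in cultured E12.5 (25.6% to 34.0%), 40.4% in cultured E11.5 (35.3% to 45.5%) and 12.6% in uncultured E11.5 (9.46% to 16.4%). This too was carried by single cells. The keratin share was 58.2% in B12, 27.2% in B16 and 25.0% in K17 of cultured E12.5, and 58.5% in I10, 40.4% in F6 and 34.4% in E14 of cultured E11.5. In the uncultured wells with at least 10 counts of the 10 genes it ran between 0% and 27.3%, with a median of 8.33% over 9 wells. Without the 3 wells with most counts on each plate, a choice made after seeing the data, the keratin share was 10.6% in cultured E12.5, 25.5% in cultured E11.5 and 13.03% in uncultured E11.5. The keratin excess of cultured E12.5 was thus not seen outside its 3 highest wells.

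**Figure D4:**
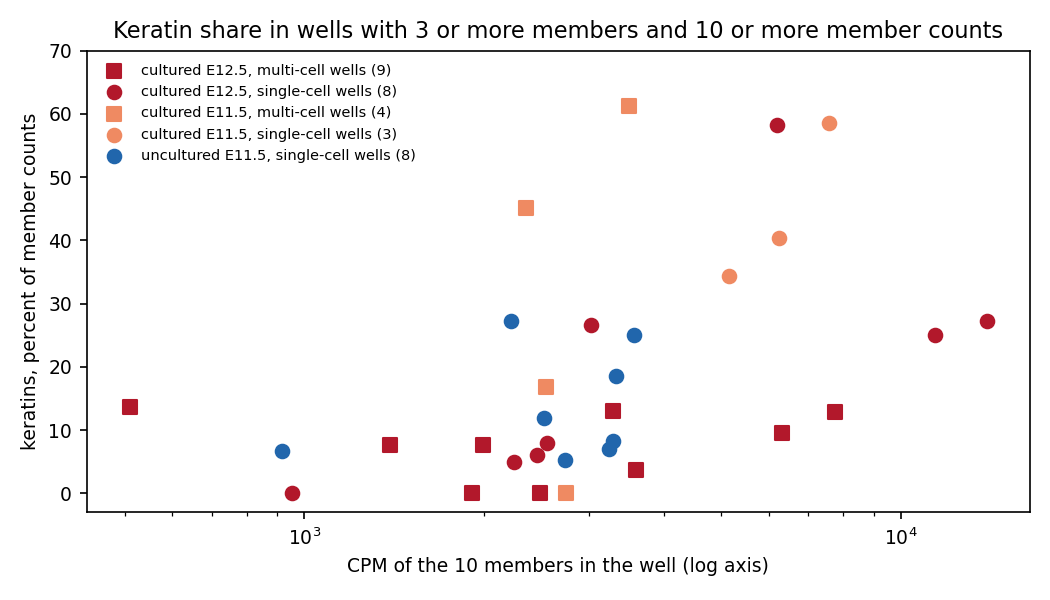
Keratin share of the counts of the 10 genes, in percent, against their CPM in the well on a logarithmic axis, for wells with 3 or more of the genes and at least 10 of their counts; colours give the plate, circles are single-cell wells and squares multi-cell wells. The 3 cultured E11.5 circles lie between 34.4% and 58.5%, the 8 cultured E12.5 circles between 0% and 58.2%, and the 8 uncultured circles between 5.26% and 27.3%.

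The balance of the 2 cadherins also differed between plates. Cdh16 made up 68.1% of the Cdh1 and Cdh16 counts in cultured E12.5 (58.9% to 76.3%), 68.3% in cultured E11.5 (55.0% to 79.7%) and 29.1% in uncultured E11.5 (17.6% to 42.9%). Without the 3 highest wells the shares were 77.6%, 92.9% and 25.0%, given without intervals. The cultured E11.5 value rests on few counts, as I10, F6 and E14 held 94.7% of the 19 Cdh1 counts. Of the Cdh16 counts left on that plate, 6 were in well P8 and 5 were single counts in wells with none of the other genes. The Cldn6 share of claudin counts without the 3 highest wells was 50.0%, 74.5% and 81.8%. Krt19 made up 22.3% of keratin counts in cultured E12.5, 25.3% in cultured E11.5 and 10.4% in uncultured E11.5, the last from 5 counts of 48.

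The wells with 3 or more of the genes differed from those with none in other epithelial genes, which the choice of wells did not use. These are descriptions of 10, 6 and 16 cells against 152, 237 and 264 cells, at median depths of 8793, 12902 and 9927 counts against 8777, 8320 and 6286 counts. The 12 epithelial regulators, among them Spint2, a protease inhibitor of epithelial surfaces, were 101.5-fold higher in cultured E12.5 (67.8 to 157), 98.8-fold in cultured E11.5 (70.8 to 139.6) and 6.34-fold in uncultured E11.5 (4.59 to 8.85). Spint2 was counted in 9 of 10, 4 of 6 and 14 of 16 of these wells. Of the 12 regulators, 5, 3 and 4 had at least 10 counts in the pair. In cultured E12.5, B12, B16 and K17 held 39, 37 and 49.1 of the 175.1 regulator counts. In cultured E11.5, I10, F6 and E14 held 56.1, 51.2 and 30 of the 147.3, and M12 held 0. The 8 desmosome and hemidesmosome genes were at ratios of 8.43, 8.88 and 1.11, the last with an interval of 0.872 to 1.41. Of those 8 genes, 5, 4 and 4 had at least 10 counts in the pair. The 16 tight junction and polarity genes were at ratios of 4.76, 5.78 and 1.41.

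The uncultured ratios depended on the deep wells. Without wells over 3 times the median depth, a setting added after seeing the data, the uncultured ratios were 36.9 for epithelial regulators, 4.50 for desmosome genes and 3.26 for tight junction genes. The stromal list was at a ratio of 0.128 in cultured E12.5, 0.0751 in cultured E11.5 and 0.844 in uncultured E11.5, the last 0.114 without deep wells. The nephron progenitor list was at 0.425, 0.705 and 1.33, the last 0.545 without deep wells, where its direction turned. In cultured E11.5 the neural list was 7.98-fold higher, and well P8 held 236.4 of its 242.4 counts, beside 6 counts of Cdh16 and 1 each of Cldn7 and Krt8.

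The ureteric list was higher in wells with several of the 10 genes on every plate, while single genes of it differed between plates. It was 5.67-fold higher in wells with 3 or more of the genes than in wells with none in cultured E12.5, 6.36-fold in cultured E11.5 and 3.09-fold in uncultured E11.5 (11.7-fold without deep wells). Calb1, a calcium-binding protein of the ureteric bud, had 1 count in the 10 cultured E12.5 wells, 0 in the 6 cultured E11.5 wells and 152.4 counts in 11 of the 16 uncultured wells. Ret, the receptor tyrosine kinase of ureteric bud tips, had 0 counts, 3 counts and 38 counts in the same wells. Gata3, a transcription factor of the ureteric lineage, had 28, 35 and 71.1 counts, in 5 of 10, 3 of 6 and 14 of 16 wells. It was high in some of the keratin-rich cultured wells and absent from others: 20 counts in B12, 4 in B16 and 1 in K17, and 11 in I10, 0 in F6 and 14 in E14. Well P8 of cultured E11.5, which held 236.4 neural counts, held 2 counts of Ret, 10 of Gata3 and 24 of the ureteric list. Among the uncultured wells, O7 held 19 counts of Ret and J7 held 7, while G4, H1 and H12 held none of Ret and 21.1, 14 and 25.1 counts of Pax8, a transcription factor of forming nephrons. G4, H1 and H12 held 15, 8 and 4 counts of the 10 genes, mainly Cldn6 in the G4 and H1 wells. The wells with 3 or more of the genes therefore included both wells with Ret and wells with Pax8 and no Ret.

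The leading other genes, by ratio over wells with none, differed by plate. Only genes with at least 20 counts in the wells with 3 or more of the 10 genes were ranked. Each was thus picked for being high there, and its ratio is a description that carries no test. In cultured E12.5 they included Sprr2g (568-fold), Prss8 (454-fold) and Mal2 (422-fold). These ratios stand on 1 count in wells without the genes and have wide intervals. Prss8, a membrane-anchored serine protease of epithelia, was counted in 8 of the 10 wells, while Sprr2g was counted in 3. Krt7, a type II keratin of simple ducts, was 349.8-fold higher (90.9 to 2974) and in 4 wells. In cultured E11.5 they included Tspan8 (709-fold), Mal2 (344-fold) and Wfdc2 (316-fold). In uncultured E11.5 they included Calb1 (179-fold), Mal2 (119.9-fold) and Rprm (18.4-fold). Without wells over 3 times the median depth the uncultured ratios were 1085 for Calb1, 479 for Mal2 and 74.2 for Rprm, while Sprr2g was at 528 in cultured E12.5. Mal2, a protein of apical membrane traffic, was among the first 10 on every plate.

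By likeness across wells the neighbours of the 10 genes also differed. The measure was the Pearson correlation with the mean of the 10 genes, on the log of 1 plus counts per 10000, among genes found in at least 5% of wells. In cultured E12.5 the highest of 12111 genes were Adgrg1 (0.84), Cystm1 (0.84), Spint2 (0.81), Prss8 (0.78) and Dsp (0.75). In cultured E11.5 high among 12043 were Clu (0.66), Spint2 (0.65), Espn (0.64) and Lsr (0.63). In uncultured E11.5 the highest of 11585 were Gata3 (0.73), Rprm (0.72), Fam84b (0.64), Grb7 (0.61) and Aldh1a3 (0.60). The wells share library and depth, so these correlations are descriptions.

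The repressors that bind the hexamer capitalised in the promoter windows were low in these wells on the cultured plates. These 4 genes were chosen for that known binding, with their values known. Snai2 had 5 counts in the 10 wells of cultured E12.5 (50.5 CPM), against 549 counts in the wells with none of the genes (341 CPM). It had 0 counts in the 6 wells of cultured E11.5, against 548 counts (239 CPM). In uncultured E11.5 it had 52.2 counts (80.5 CPM) in the 16 wells, against 342 counts (149.6 CPM). Zeb2 was at 80.8 CPM against 319 CPM in cultured E12.5, 14.03 CPM against 279 CPM in cultured E11.5 and 66.5 CPM against 185 CPM in uncultured E11.5. Snai1 had 0 counts in the wells with 3 or more of the genes on both cultured plates, and was at 46.6 and 48.3 CPM in wells with none. In the wells with 3 or more of the genes, 1 count is 10.1 CPM in cultured E12.5 and 14.03 CPM in cultured E11.5. Counts of 0 and levels near those values therefore carry wide counting error. Zeb1 was at 10.1 CPM against 103 CPM in cultured E12.5, at 42.1 CPM against 138 CPM in cultured E11.5 and, the other way, at 139.7 CPM against 107 CPM in uncultured E11.5, where wells D1 and F11 are included. Fewer mesenchymal cells and less repressor per cell cannot be told apart from these sums.

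Keratin in wells without Epcam was rare and mostly at 1 count. A keratin was counted in 4 of 183 wells without Epcam in cultured E12.5 (2.19%, 0.599% to 5.50%), 16 of 290 in cultured E11.5 (5.52%, 3.19% to 8.81%) and 7 of 299 in uncultured E11.5 (2.34%, 0.946% to 4.76%). In wells with Epcam a keratin was counted in 9 of 17 (52.9%), 3 of 10 (30%) and 13 of 38 (34.2%). For comparison, a keratin was counted in 0 of 4, 1 of 15 (6.67%) and 1 of 16 (6.25%) leukocyte-rich wells, so at these numbers the shares without Epcam cannot be told from that background. The keratin stood at a single count in 3 of the 4, 12 of the 16 and 5 of the 7 wells. With wells thinned to 1000 counts the shares were 0.513%, 1.34% and 0.906%, and with 2 or more keratin counts required they were 0.546%, 1.38% and 0.669%. No order of the plates is read from these shares.

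Each keratin occurred without Epcam in few wells. Krt8 did so in 1 well of cultured E12.5, 3 of cultured E11.5 and 4 of uncultured E11.5. Krt18 did so in 0, 6 and 3 wells; its 0 of 183 wells in cultured E12.5 allows, by the limit of 3 counts for a 0, a share of up to 1.64%. Krt19 did so in 3, 7 and 2 wells. More than 1 keratin occurred together without Epcam only in well M23 of the uncultured plate. Among wells with Epcam, Krt19 was counted in 4 of 17, 3 of 10 and 1 of 38 wells and Krt18 in 8 of 17, 3 of 10 and 11 of 38. Of all Krt19 wells, 3 of 7, 7 of 10 and 2 of 3 had no Epcam.

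The 7 wells with 2 or more keratin counts and no Epcam were of several kinds. In N2 and N23 of cultured E11.5, 4 and 5 counts of Krt19 stood beside 26.1 and 19 counts of Upk3b, 12 and 13 of Wt1, and 61.1 and 53.0 counts of the whole mesothelial list. Mesothelium, the cell sheet that covers the kidney and body cavity, is known to carry keratins and Wt1, and Upk3b is a known marker of it in mouse. Both wells also held stromal counts, with 143.5 and 575.6 of Col1a1. In M23 of uncultured E11.5 there were 2 counts of Krt8, 3 of Krt18 and 3 of Krt19, none of the other 7 genes, 1 count of Upk3b and 10 of Wt1. M23 was 1 of the 16 wells with 3 or more of the genes, and the only well among them with no junction gene. K23 of uncultured E11.5 held 3 counts of Krt18 and no count of Upk3b. In cultured E11.5, J2 held 2 counts of Krt18 beside 751.5 stromal counts, and M1, the deepest well of its plate with 78448 counts, held 2 of Krt19. In cultured E12.5, I10 held 2 counts of Krt19 and 1 of Cldn6 beside 32.1 counts of Six2. Upk3b was counted in 0 of the 4, 2 of the 16 and 1 of the 7 wells with keratin and no Epcam.

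Over all 16 wells of cultured E11.5, Upk3b was 46.7-fold higher than in wells with neither keratin nor Epcam (22.5 to 109), from 2 wells. The other leading genes of these wells came from 1 or a few cells of other kinds. Here too only genes with at least 20 counts in the wells with keratin and no Epcam were ranked, so the ratios are descriptions. Fabp4 (56.3-fold), Pecam1 (35.1-fold) and Cldn5 (26.9-fold), genes known from endothelium, came from 1 well each, and D6 held 207 endothelial counts beside a single count of Krt19. In uncultured E11.5, Csf1r and C1qb, genes of macrophages, were 7.68-fold and 5.65-fold higher and came from 1 well each. Well C22 of that plate held 160.6 leukocyte counts beside 1 count of Krt19. In cultured E12.5, Six2 was 9.33-fold higher, with 33.1 counts in 2 of the 4 wells, of which I10 held 32.1 and B2 held 1.

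**Figure D5:**
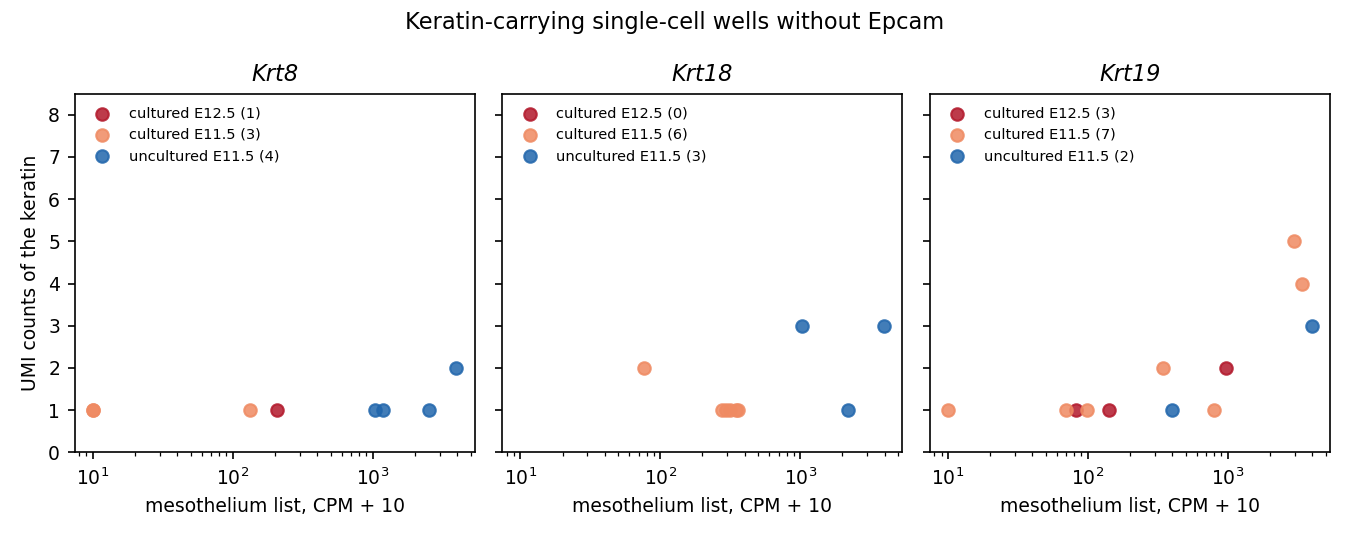
UMI counts of Krt8, Krt18 and Krt19, 1 panel each, in kept single-cell wells with that keratin and no Epcam, against the summed CPM of the 10 mesothelial genes plus 10 on a logarithmic axis; colours give the plate, and numbers in the legends are wells. Most wells hold 1 count, and the 3 wells with most Krt19, at 5, 4 and 3 counts, are N23, N2 and M23, at the upper end of the mesothelial axis.

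Multi-cell wells, present on the cultured plates only, held more of these genes per count than single-cell wells of the same plate. The 10 genes summed to 1036 CPM (959 to 1118) in multi-cell wells and 205 CPM (187 to 224) in single-cell wells of cultured E12.5, and to 322 CPM (279 to 369) and 116 CPM (104 to 128) in cultured E11.5. Wells with 3 or more of the genes were 9 of 38 (23.7%) against 10 of 200 (5%) in cultured E12.5, and 4 of 36 (11.1%) against 6 of 300 (2%) in cultured E11.5. A well with several cells can gather genes of different cells, so these shares are not shares of cells. In cultured E12.5, well C22 held 247.9 counts, E21 held 157.6 and E18 held 92.2, each in all 10 genes, which together are 74.9% of the multi-cell sum. In cultured E11.5, F19 held 77 counts in all 10 genes, C20 held 49, D23 held 31 and A18 held 21.

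In cultured E12.5 the ratios of multi-cell over single-cell wells lay between 4.21 and 9.17 for Epcam, the cadherins and the claudins, and between 0.801 and 2.10 for the keratins. Cdh16 was at 316 CPM in multi-cell wells and 34.5 CPM in single-cell wells, a ratio of 9.17 (7.06 to 12.02), with 71.6 counts in well E21 alone. Cdh1 was at a ratio of 7.14 (4.76 to 10.8), Cldn6 of 6.96 (4.89 to 10.0), Cldn3 of 6.22 (3.62 to 10.9), Epcam of 4.84 (3.34 to 7.04), Cldn7 of 4.58 (3.21 to 6.54) and Cldn4 of 4.21 (2.58 to 6.86). Krt8 was at a ratio of 2.10 (1.31 to 3.33), Krt18 of 1.99 (1.24 to 3.14) and Krt19 of 0.801 (0.298 to 1.85). So 8 of the 10 genes were at least 2-fold higher, where 9.65% of 13602 genes were, and 0 lower, where 11.2% were. Without wells over 3 times the median depth the count was 5, with Krt8 at 1.02, Krt18, in the other direction, at 0.617, Cldn4 at 1.26, Cldn7 at 1.76, Cldn3 at 2.41 and Cdh1 at 4.76, and C22 and E18 are among the deep wells left out. The keratin share of the 10 genes was 10.4% in multi-cell wells (8.16% to 12.9%), against 29.7% in single-cell wells.

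In cultured E11.5, Cdh1 was at a ratio of 5.36 (2.72 to 10.6), Epcam of 4.48 (2.62 to 7.60), Cdh16 of 4.35 (2.69 to 7.00), Krt19 of 4.02 (2.41 to 6.66), Cldn7 of 3.09 (1.59 to 5.85) and Cldn6 of 2.27 (1.46 to 3.47). Krt18 was at 1.61 (0.926 to 2.71), Krt8 at 1.14 (0.536 to 2.23) and Cldn4 at 1.88 (0.667 to 4.66), and Cldn3 had too few counts. So 6 of 9 genes were at least 2-fold higher, where 6.01% of 14431 genes were, and 0 lower, where 9.35% were. All 7 counts of Cldn4 came from well F19, and Krt18 was at 0.388 without well C20, which held 17 of its 20 counts, and without its highest single-cell well. Krt19 made up 49.2% of keratin counts in multi-cell wells (36.1% to 62.3%), against 25.3% in single-cell wells (18.6% to 33.1%). A18 held 21 counts of the genes and no keratin.

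Other lists also differed between multi-cell and single-cell wells. In cultured E12.5, 10 of 11 early nephron genes, 7 of 9 progenitor genes and 5 of 6 podocyte genes were at least 2-fold higher, and 7 of 8 stromal genes at least 2-fold lower, with the percentages over all genes given above. In cultured E11.5, 8 of 11 early nephron genes and 7 of 9 progenitor genes were at least 2-fold higher, and 0 of 8 stromal genes lower. Their part in the ratios of the 10 genes was not tested.

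The relatives of the 10 genes put these levels in context. Of 23 cadherins listed, 14 besides Cdh1 and Cdh16 had at least 10 counts. Cdh11, a mesenchymal cadherin, was at 860.2 CPM in cultured E12.5, 801 CPM in cultured E11.5 and 782 CPM in uncultured E11.5, counted in most wells. Cdh4 was at 21.7, 12.1 and 78.7 CPM in the same order, and Cdh3 at 17.5, 24.6 and 19.95 CPM. Of 18 claudins, 8 others had at least 10 counts. Cldn11 was at 333 CPM in cultured E12.5, 233 CPM in cultured E11.5 and 38.9 CPM in uncultured E11.5, and Cldn9, a close relative of Cldn6, at 5.96, 3.11 and 28.4 CPM. Of 29 keratins, 4 others had at least 10 counts. Krt7 was at 19.2 CPM in cultured E12.5, 9.97 CPM in cultured E11.5 and 1.92 CPM in uncultured E11.5, and Krt10 at 14.5, 17.1 and 16.1 CPM. Krt7 therefore followed the order of Krt8, Krt18 and Krt19, and Krt10 did not. Levels of these relatives are not ranked against each other. Shares of counts, such as that of Cdh16 among Cdh1 and Cdh16, are compared between plates or wells only.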

How the data were processed

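Cells were sorted into 384-well plates and read by SORT-seq, a 3′ method with UMIs, on 3 plates of 1 group each. The deposited tables hold estimated counts, UMI numbers that the authors corrected for the 4096 possible identifiers, per the values in the files: 1.90%, 1.53% and 1.43% of values in uncultured E11.5's, cultured E12.5's and cultured E11.5's tables are not whole, and all match that correction within 0.1. STAR 2.6.1a, featureCounts 1.5.2 and GRCm38.p5 are named in the submitters' processing notes. The column of reads with no well, about 4.2% to 4.3% of each table, was left out. Values were summed over kept wells and divided by the total of nuclear-encoded genes. Intervals are Poisson for levels, Clopper-Pearson for shares and for the split of 2 counts, with values rounded to whole numbers there and for thinning. Ratios need at least 10 counts in the pair, and with 1 plate per group no p-value was computed. Whole counts had been planned for, and the estimated counts needed no other method. Python 3.11.15 was used with numpy 2.4.6, scipy 1.17.1, pandas 2.3.3 and matplotlib 3.10.9, and the interval code was tested on simulated data. The 10 genes and all gene lists were chosen with earlier results of these data known. Besides the 10 genes, the text names up to 4 genes of a list by counts, up to 5 of a family, and the 10 genes with the highest ratio or correlation per plate, and others are said to be chosen after seeing values. Alternatives were depth minima, thinning, deep wells left out, equal weight per well, each gene's highest well left out, other thresholds and another scaling. A few genes that these rules name are not reported here.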

Additional observations from a re-analysis of the deposited data

Results flagged for a closer look

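Of the 131 single-cell wells of the cultured E12.5 plate that were not kept, 5 held counts of the 10 genes, 8 counts in all. They were 3 of Cdh16, 3 of Krt8, 1 of Cldn4 and 1 of Krt18, in a total of 24609 counts, or 325 CPM. The median depth of these wells was 105 counts, and the 15 control wells of the same plate held none of the genes. This was noted because it is signal in wells that no comparison used.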

How the results depend on the processing

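No paired analysis was possible because there is 1 plate per group. Of 128 values of the comparisons recomputed under other settings, 96 kept within their margin and 32 did not. Among the 10 genes, the count at least 2-fold higher in cultured E11.5 than in uncultured E11.5 was 3, in place of 5, with each well weighted equally and 0 with wells thinned to 1000 counts, and the count lower was, in place of 1, 2 without wells over 3 times the median depth, 3 with equal weights and 2 without each gene's highest well. The 7 higher in cultured E12.5 than in uncultured E11.5 became 2 when thinned, and the 6 higher in cultured E12.5 than in cultured E11.5 became 3; thinning leaves few genes with 10 counts by its construction. In multi-cell wells, 8 higher genes of cultured E12.5 became 5 without deep wells, and 0 lower genes of cultured E11.5 became 1 without deep wells and 2 without each gene's highest well, a setting chosen after seeing the data. The summed level of the 10 genes in cultured E12.5, 205 CPM, was 238 without deep wells, 243 with equal weights, 132 without each gene's highest well and 260.0 thinned. In cultured E11.5, 116 CPM became 128, 99.0, 72.3 and 90, and in uncultured E11.5, 91.4 CPM became 136, 109.5 and 73.4 in the first 3 of these settings. The uncultured share of wells with 3 or more of the genes, 4.75%, was 1.19% thinned to 1000 counts, 9.50% for 2 or more genes and 2.67% with 2 counts required per gene. The share with a keratin among wells without Epcam, thinned to 1000 counts, thinned to 3000 counts and with 2 counts required, was 0.513%, 0.559% and 0.546% in cultured E12.5 and 1.34%, 1.76% and 1.38% in cultured E11.5, while in uncultured E11.5 it was 0.906% thinned to 1000 counts and 0.669% with 2 counts required. Of 396 further values, 333 kept within their margin and 59 moved. Another 4 ratios that were at least 2-fold or had an interval excluding 1 turned: Cldn6 in cultured E11.5 over uncultured E11.5, at 1.35 thinned to 1000 counts against 0.722, Krt18 in multi-cell over single-cell wells of cultured E12.5, at 0.617 without deep wells against 1.99, and, without deep wells in a setting chosen after seeing the data, the progenitor list of uncultured E11.5 in wells with 3 or more of the genes over wells with none, at 0.545 against 1.33, and the mesothelial list, at 0.290 against 1.17. With ratios near 1 included, 15 of 360 recomputed ratios lay on the other side of 1. Scaling by median of ratios shifted log2 ratios by 0.105, 0.097 and -0.008 and changed no count. The cause of these changes was not tested. Depth limits single wells, where 1 count cannot be told from background.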
